A study of Mus musculus with 36 samples.

Results

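The genes described here are 9 mouse genes for extracellular, lysosomal and cytosolic lipid carriers, a lipoprotein lipase and sterol exporters. They were picked by name: the secreted carriers Apoe, Apod and Clu, the lysosomal carrier Npc2, the exporters Abca1 and Abcg1, the lipase Lpl and the fatty acid binding proteins Fabp4 and Fabp5. They are 9 of the 43472 genes in the count table, of which 23121 had at least 1 count. The names alone define the set, which was put together with earlier results of these data known. The samples were primary enteric glial cells (EGCs), the glia of the gut wall, grown from embryonic neurospheres of wild type mice. They were left unstimulated, or were stimulated with medium conditioned by cells of digested healthy colon (H-CM) or by cells of digested MC38 tumors grown in the mouse colon (TME-CM, for tumor microenvironment). Each of the 3 conditions was sampled after 6, 12 and 24 h with 4 libraries, giving 9 groups and 36 libraries of 3′ mRNA sequencing. All groups share the WT genotype, and no tumor or immune cells were added to the cultures, so the data show cultured embryonic cells under conditioned medium and not glia inside a tumor. The labels do not say whether replicates came from separate cultures, so p-values measure only the spread between these libraries.

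Cells move cholesterol and fatty acids on dedicated proteins. In glia, ABC transporters of the plasma membrane load cholesterol and phospholipid onto secreted apolipoproteins, mainly ApoE, and the particles formed are taken up by neighbouring cells through lipoprotein receptors. Inside the cell, NPC2 binds cholesterol in the lysosome, lipoprotein lipase releases fatty acids from lipoproteins at the cell surface, and the fatty acid binding proteins (FABPs) carry fatty acids through the cytosol.

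Fabp4 and Fabp5 lie on chromosome 3 of GRCm38, the assembly also called mm10, with Fabp5 at 10012548 to 10016607 on the plus strand and Fabp4 at 10204088 to 10208576 on the minus strand. The space between them spans 187480 bases and holds their relatives Pmp2 and Fabp9, both with 0 counts in all 36 libraries. Since the results turn on this pair, the ends of their coding sequences are shown here, 120 aligned bases each from the GENCODE transcripts of GRCm38, written 5′ to 3′ on the strand of the gene, with capitals at the 42 positions where the 2 genes differ.
Fabp4, coding bases 277 to 396 of 396: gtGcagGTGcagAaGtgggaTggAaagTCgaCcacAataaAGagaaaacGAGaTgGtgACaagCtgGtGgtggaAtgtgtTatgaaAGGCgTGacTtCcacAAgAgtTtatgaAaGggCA
Fabp5, coding bases 283 to 402 of 405: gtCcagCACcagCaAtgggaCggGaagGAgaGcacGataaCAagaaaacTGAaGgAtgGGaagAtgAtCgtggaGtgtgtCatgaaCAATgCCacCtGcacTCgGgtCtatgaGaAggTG
Over the whole coding sequence the pair was identical in 58.5% of 405 aligned columns, and the longest identical run was 12 bases. None of the 9 genes shares exon bases with another annotated gene. Among stretches of 50 bases from the last 400 bases of each coding transcript, 13 of 1404 in Abcg1 occur in other genes and 0 in each of the other 8. Along a single full transcript, Fabp5 shares 21 of 938 such stretches with its pseudogene Fabp5l2, which had 109 counts in all libraries together and at most 11 in any 1.

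Levels are given in CPM, counts relative to the library total, on TMM-scaled library sizes, a scaling that equalises the bulk of genes between libraries, and group values are means ± SD over n = 4 libraries. Library totals ran from 13518 counts in H-CM replicate 4 of 6 h to 7552509, and a count of 0 in that shallow library allows up to 110.5 CPM on the same scale, taking 3 counts as the limit. This limit covers counting error only. The enteric glia markers were present in every group, with a summed level of 242 to 334 CPM in TME-CM, 288 to 310 CPM in H-CM and 237 to 272 CPM in unstimulated libraries of 24 h. Markers of fibroblasts (5046 to 8036 CPM at 24 h), of smooth muscle (1813 to 8413 CPM) and of neurons (318 to 509 CPM) were detected in every library as well. In bulk libraries, fewer cells of a type and less RNA per cell cannot be told apart.

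Fold changes are log2 values from edgeR's quasi-likelihood test, given as value ± SE, in 1 model of the 12 libraries of each time point, and a gene is called where its p-value, adjusted with the Benjamini-Hochberg method over all genes tested, is under 0.05. After 24 h, Fabp4 and Fabp5 were the members called between TME-CM and H-CM EGCs, both higher in TME-CM, which is 2 of 9 beside 5.4% of the 12713 genes tested. Compared with unstimulated EGCs, 5 of 9 were called in TME-CM EGCs at 24 h, all higher (Apod, Abcg1, Npc2, Fabp4 and Fabp5), beside 9.52% of all genes. H-CM against unstimulated gave 1 of 9 at 24 h, Fabp4, beside 2.03% of all genes. The median log2 fold change of the 9 genes was 0.20 for TME-CM versus H-CM and 0.55 for TME-CM versus unstimulated at 24 h, and both medians over all genes tested were 0.00. Comparisons of TME-CM with both controls share the TME-CM libraries, and those against unstimulated EGCs share the unstimulated ones.

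**Figure D1:**
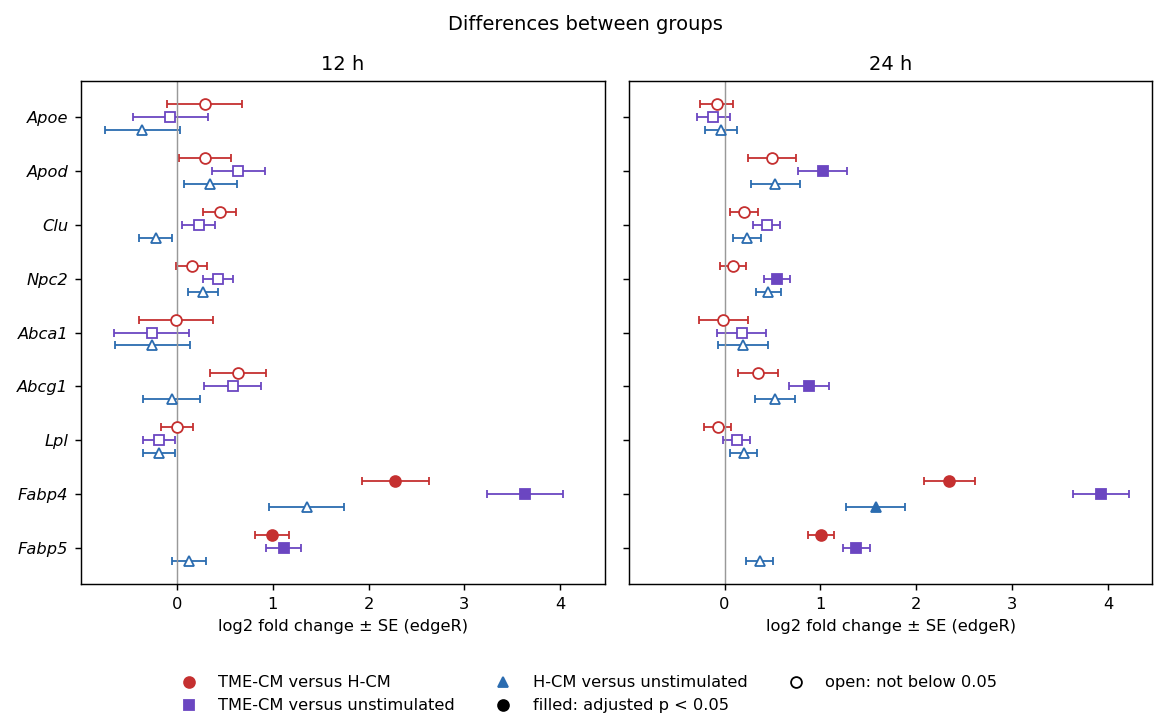
Log2 fold change ± SE (edgeR, x axis) of the 9 genes at 12 h and 24 h, for TME-CM versus H-CM (circles), TME-CM versus unstimulated (squares) and H-CM versus unstimulated (triangles), with filled symbols where the adjusted p was under 0.05. Fabp4 has the largest fold change of the 9 genes in each panel, and Apoe, Clu, Abca1 and Lpl have no filled symbol.

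Fabp4, which carries fatty acids in adipocytes, macrophages and capillary endothelium, had the largest fold changes of the 9 genes at 12 h and 24 h. At 24 h the 4 TME-CM libraries held 49.2, 38.0, 55.0 and 35.7 CPM, from 99 to 409 counts. H-CM libraries held 11, 10.4, 6.45 and 6.93 CPM, and unstimulated ones 5.02, 3.20, 2.68 and 1.48 CPM. The 3 groups did not overlap: every TME-CM library lay above every H-CM library, and every H-CM library above every unstimulated one. Of all genes tested, 11.2% did not overlap between TME-CM and H-CM, 13.1% between TME-CM and unstimulated, and 8.17% between H-CM and unstimulated. The Fabp4 means were 44.5 ± 9.17, 8.68 ± 2.32 and 3.10 ± 1.47 CPM. TME-CM exceeded H-CM by 2.35 ± 0.26 on the log2 scale (5.09-fold, adjusted p = 4.89e-06) and unstimulated by 3.93 ± 0.29 (15.2-fold, adjusted p = 3.22e-09). H-CM itself exceeded unstimulated by 1.58 ± 0.31 (2.99-fold, adjusted p = 0.00547), so Fabp4 rose in both conditioned media and more in TME-CM.

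At 12 h the Fabp4 levels were 45.5, 33.2, 37.7 and 74.0 CPM in TME-CM, 7.26, 11.8, 15.5 and 4.83 CPM in H-CM and 4.07, 4.51, 3.18 and 3.70 CPM in unstimulated EGCs. Again the groups did not overlap, beside 7.21% (TME-CM and H-CM), 10.6% (TME-CM and unstimulated) and 3.85% (H-CM and unstimulated) of all genes tested. TME-CM was higher than H-CM by 2.28 ± 0.35 (4.85-fold, adjusted p = 0.000908) and than unstimulated by 3.63 ± 0.39 (12.4-fold, adjusted p = 5.08e-06). H-CM lay above unstimulated by 1.35 ± 0.39 at 12 h, which was not called (unadjusted p = 0.00238, adjusted p = 0.273). With all 36 libraries in 1 model, including the shallow ones of 6 h, the calls of Fabp4 in TME-CM over H-CM were lost at both times (adjusted p = 0.0676 at 12 h and 0.0624 at 24 h) with fold changes of 2.27 and 2.35 on the log2 scale, and that of H-CM over unstimulated at 24 h was lost too (adjusted p = 1). The other 14 of 15 alternatives called Fabp4 in each of these 3 comparisons, with adjusted p-values down to 6.82e-09, 2.26e-20 and 2.46e-06. When each library was dropped in turn (8 fits), the TME-CM over H-CM change of Fabp4 lay between 2.19 and 2.48 at 24 h and stayed called in all 8.

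At 6 h Fabp4 rested on at most 20 counts in any library. The TME-CM libraries of 6 h held 0, 5, 1 and 20 counts, with totals of 1321201 to 5244763, or 2.40 ± 2.55 CPM. H-CM libraries held 14, 10, 4 and 0 counts, or 7.54 ± 8.90 CPM, the first of them at 20.4 CPM. Unstimulated ones held 3, 10, 0 and 8 counts, or 3.20 ± 3.36 CPM. The 3 groups overlapped. Fabp4 did not pass the filter on low counts at 6 h and was not tested there. Its TME-CM mean was thus 2.40 CPM at 6 h, 47.6 CPM at 12 h and 44.5 CPM at 24 h, and the step between 6 h and the later times was not tested. Between 12 h and 24 h the TME-CM level differed by −0.08 ± 0.29 on the log2 scale, with a 95% interval of −0.66 to 0.49.

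Fabp5, the FABP of skin and of many immune and glial cells, had smaller fold changes than Fabp4 in TME-CM at 12 h and 24 h. At 24 h its TME-CM libraries held 139, 137, 130 and 108 CPM. The H-CM libraries held 55.6, 70.5, 65.9 and 62.4 CPM, and the unstimulated libraries 43.6, 43.4, 49.2 and 60.7 CPM. All TME-CM libraries lay above H-CM, where 11.2% of all genes tested did not overlap, and above unstimulated EGCs (13.1%). The control groups overlapped each other. TME-CM exceeded H-CM by 1.01 ± 0.14 (2.01-fold, adjusted p = 7.7e-05) and unstimulated by 1.37 ± 0.14 (2.59-fold, adjusted p = 4.04e-07). H-CM over unstimulated came to 0.37 ± 0.14 (unadjusted p = 0.0166, adjusted p = 0.279), which was not called.

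The 12 h values of Fabp5 were 118, 136, 115 and 100 CPM in TME-CM, 51.1, 65.0, 61.4 and 59.4 CPM in H-CM and 60.5, 55.7, 51.4 and 48.9 CPM in unstimulated EGCs. TME-CM again lay above both controls in every library, by 0.99 ± 0.18 over H-CM (1.99-fold, adjusted p = 0.00325) and by 1.11 ± 0.18 over unstimulated (2.16-fold, adjusted p = 0.000386). Of all genes tested at 12 h, 7.21% did not overlap between TME-CM and H-CM and 10.6% between TME-CM and unstimulated. Both Fabp5 calls against H-CM and both against unstimulated held in all 15 alternatives run for each comparison. At 6 h the TME-CM libraries already held 112, 90.7, 114 and 129 CPM. H-CM libraries of 6 h lay just below, at 81.7, 89.7, 86.7 and 73.6 CPM, the last from 2 counts, and the unstimulated ones spread from 31.5 to 94.8 CPM. The TME-CM over H-CM difference at 6 h was 0.37 ± 0.43 (adjusted p = 0.932) and was not called. The 2 groups did not overlap, as was the case for 4.13% of all genes tested there. The group means of Fabp5 in TME-CM were 111 ± 15.6 CPM at 6 h, 117 ± 14.8 CPM at 12 h and 128 ± 14.3 CPM at 24 h, neighbouring values that lie within 1 SD of each other.

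**Figure D2:**
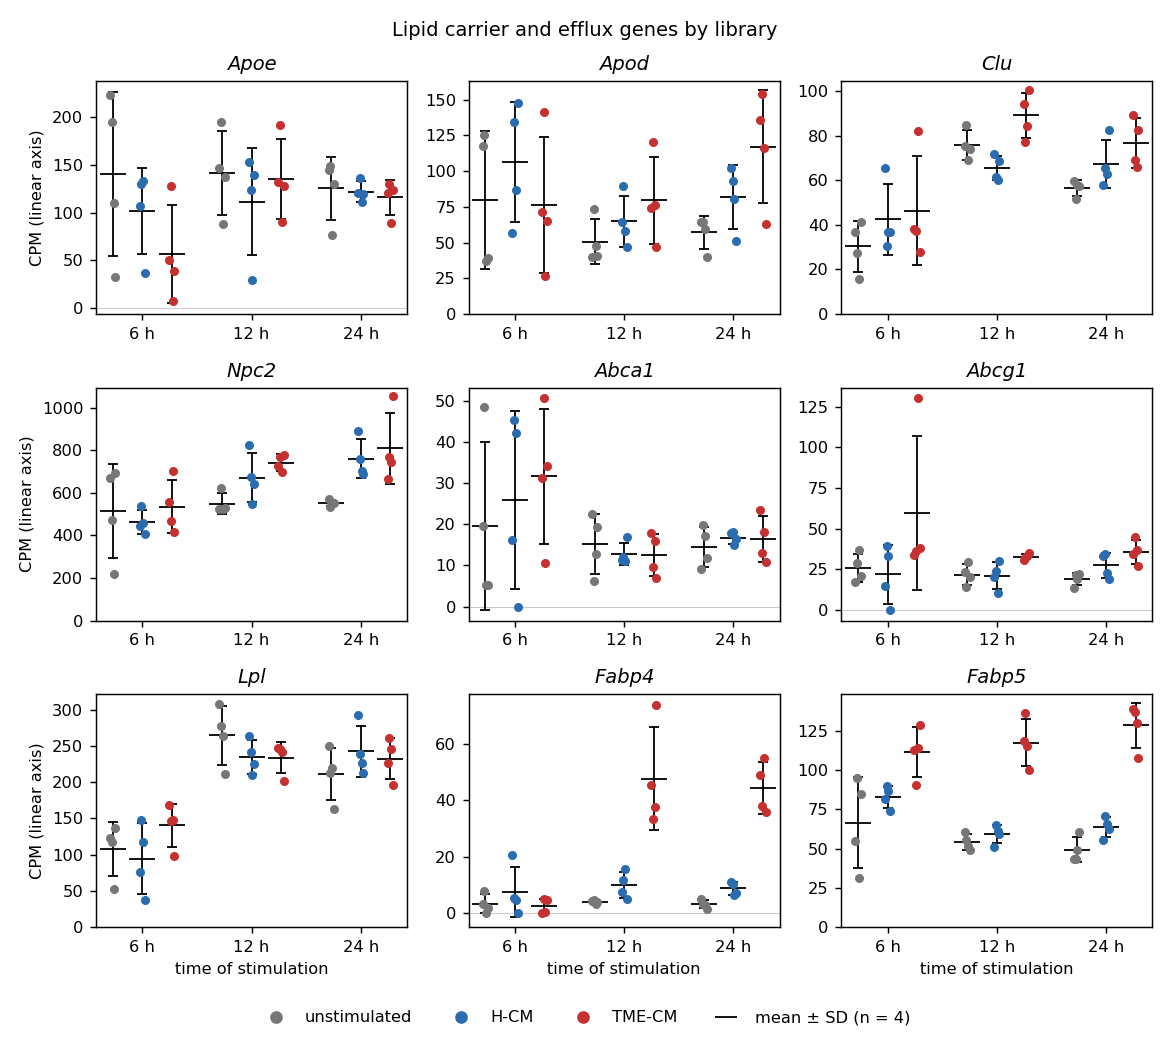
CPM on a linear axis of the 9 genes in each of the 36 libraries, by time of stimulation, with colors for unstimulated, H-CM and TME-CM and black bars for the mean ± SD (n = 4). Fabp4 and Fabp5 stand above both controls in TME-CM at 12 h and 24 h, Fabp4 lies between 0 and 20.4 CPM at 6 h, and Apoe, Abca1 and Lpl overlap between the 3 conditions at every time.

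At 12 h the same 2 of 9 genes, Fabp4 and Fabp5, were called in TME-CM versus H-CM, beside 1.89% of the 12156 genes tested, and in TME-CM versus unstimulated, beside 4.41%. H-CM versus unstimulated gave 0 of 9 at 12 h with edgeR, beside 0.403%. An unadjusted p under 0.05 was found there for 1 of 9 members, beside 688 of 12156 genes. DESeq2's Wald test also called 0 of 9 there. At 6 h, 0 of the 8 genes tested were called by edgeR or by DESeq2 in TME-CM versus H-CM (0.0972% of 9256 genes), in TME-CM versus unstimulated (0.454%) and in H-CM versus unstimulated (0%). At an unadjusted p under 0.05 with edgeR these 3 comparisons gave 0, 1 and 0 of 8 members, the 1 being Apoe. Over all 9256 genes they gave 562, 573 and 58. Medians of the members at 6 h, 0.13, 0.44 and 0.19, stood beside medians over all genes of 0.13, 0.04 and −0.10.

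None of the 9 genes was called by edgeR between 24 h and 12 h within a condition, in unstimulated EGCs (0.0153% of 13105 genes), in H-CM EGCs (0.00763%) or in TME-CM EGCs (0.626%). In the same order 2, 0 and 1 members had an unadjusted p under 0.05, beside 694, 817 and 1034 of the 13105 genes. The change of the TME-CM over H-CM difference from 12 h to 24 h was called for 0 of 9 members and for 0% of all genes, 0 members and 436 genes having an unadjusted p under 0.05. For Fabp4 that change was 0.08 ± 0.44, with a 95% interval of −0.78 to 0.94, and for Fabp5 0.03 ± 0.22, with an interval of −0.39 to 0.46.

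Among the secreted carriers, Apod was called by edgeR in 1 of the 9 comparisons between conditions, TME-CM against unstimulated EGCs at 24 h, and Apoe and Clu in none. Apod is a lipocalin that binds small lipids such as arachidonic acid and is made by glia. At 24 h it reached 135, 154, 116 and 62.9 CPM in TME-CM, 102, 93.4, 80.4 and 51.0 CPM in H-CM and 64.7, 64.4, 59.8 and 40.0 CPM in unstimulated EGCs. The lowest library was replicate 4 in all 3 groups, and the TME-CM range reached into both other ranges. Apod was higher in TME-CM than in unstimulated EGCs by 1.03 ± 0.25 (2.04-fold, adjusted p = 0.0155), a call that was lost without TME-CM replicate 2 (0.87, adjusted p = 0.0507) and in the model of all 36 libraries (adjusted p = 0.245), the other 13 of 15 alternatives keeping it with adjusted p-values down to 4.45e-09. Over H-CM the Apod difference was 0.49 ± 0.25 (unadjusted p = 0.0679, adjusted p = 0.365), with a 95% interval of 0.00 to 0.99. Of 15 alternatives, 3 called it, the fit without TME-CM replicate 4 (0.70, adjusted p = 0.0496), the fit with no filter on low counts (0.49, adjusted p = 0.042) and the fit with the replicate number as a block (0.49, adjusted p = 0.0379), the adjusted p-values of the others reaching 1. H-CM over unstimulated came to 0.53 ± 0.25 (adjusted p = 0.485). The Apod order at 24 h, TME-CM 117 ± 39.4, H-CM 81.7 ± 22.3 and unstimulated 57.2 ± 11.7 CPM, was also seen at 12 h with 79.5 ± 30.4, 64.8 ± 18.1 and 50.6 ± 15.8 CPM, where no step was called.

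Clu, a secreted chaperone also known as apolipoprotein J, held 94.3, 77.2, 84.4 and 100 CPM in TME-CM and 71.5, 61.5, 60.2 and 68.6 CPM in H-CM EGCs at 12 h. These 2 groups did not overlap, as was the case for 7.21% of all genes tested there. The unstimulated libraries (69.1 to 84.8 CPM) lay between and across these 2 groups. The difference of Clu between TME-CM and H-CM at 12 h, 0.45 ± 0.17, had an unadjusted p of 0.0165 and was not called (adjusted p = 0.288). At 24 h the Clu levels were 89.4, 69.0, 65.8 and 82.4 CPM in TME-CM, 57.8 to 82.7 CPM in H-CM and 51.4 to 59.7 CPM in unstimulated EGCs. TME-CM lay above unstimulated in every library, and these groups did not overlap for 13.1% of all genes tested. The Clu difference was 0.44 ± 0.14 (1.36-fold), with an adjusted p of 0.0565 just above the threshold. DESeq2's Wald test put that adjusted p at 0.0301, the lowest of 15 alternatives whose values reached 1, and 3 of the 8 fits without a library also called it.

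Apoe, the main cholesterol carrier secreted by glia, did not separate the groups at any time. At 24 h it held 121, 130, 89.1 and 123 CPM in TME-CM, 121, 137, 111 and 120 CPM in H-CM and 145, 149, 76.7 and 130 CPM in unstimulated EGCs. Replicate 3 was the lowest library of its group in all 3 groups of 24 h and all 3 of 12 h, where H-CM replicate 3 fell to 29.2 CPM beside 124 to 153 CPM in the other 3 H-CM libraries. The TME-CM over H-CM difference of Apoe at 24 h was −0.08 ± 0.17, with a 95% interval of −0.42 to 0.25, and over unstimulated it was −0.12 ± 0.17 (−0.45 to 0.22). At 6 h the TME-CM libraries held 50.9, 128, 6.98 and 39.0 CPM and the unstimulated ones 224, 195, 110 and 33.1 CPM. The 6 h difference of −1.37 ± 0.64 had an unadjusted p of 0.0424 and was not called (adjusted p = 0.788). Macrophages also express Apoe strongly. The summed level of the 11 macrophage markers measured ran from 22.8 to 339 CPM in TME-CM and from 40.3 to 941 CPM in unstimulated libraries of 6 h, and its part in the Apoe values was not tested.

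Npc2, the soluble lysosomal protein that hands cholesterol to Npc1, was called in TME-CM over unstimulated EGCs at 24 h. Its 24 h levels were 667, 769, 747 and 1053 CPM in TME-CM, 888, 761, 702 and 687 CPM in H-CM and 574, 534, 551 and 553 CPM in unstimulated EGCs. Both conditioned media lay above all unstimulated libraries and overlapped each other. Of all genes tested, 13.1% did not overlap between TME-CM and unstimulated EGCs, and 8.17% between H-CM and unstimulated EGCs. TME-CM exceeded unstimulated by 0.55 ± 0.13 (1.46-fold, adjusted p = 0.0083), and H-CM exceeded it by 0.46 ± 0.13 (1.37-fold, adjusted p = 0.0878), which was not called. The call of Npc2 against unstimulated was lost with all 36 libraries in 1 model (adjusted p = 0.414) and held in the other 14 alternatives, with adjusted p-values down to 0.00141. Between the 2 media the difference was 0.09 ± 0.13, with a 95% interval of −0.17 to 0.35. At 12 h the means were 743 ± 38.8, 671 ± 115 and 549 ± 47.9 CPM in TME-CM, H-CM and unstimulated EGCs. All TME-CM libraries again lay above the unstimulated ones, by 0.43 ± 0.16 (adjusted p = 0.183), and these groups did not overlap for 10.6% of all genes. H-CM (546 to 823 CPM) overlapped the unstimulated libraries (524 to 621 CPM), and no difference was called. Its lysosomal partner Npc1, the membrane protein that receives the cholesterol, was at 70.9 ± 17.5 CPM in TME-CM and 90.2 ± 4.67 CPM in H-CM at 24 h, a log2 difference of −0.34 with an adjusted p of 0.28.

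The 2 sterol exporters differed in what was called. Abcg1, which passes cholesterol to mature lipoprotein particles, held 34.6, 44.9, 36.9 and 27.0 CPM in TME-CM at 24 h, 33.5, 34.5, 22.5 and 19.3 CPM in H-CM and 13.8, 21.3, 19.2 and 22.1 CPM in unstimulated EGCs. TME-CM lay above every unstimulated library, where 13.1% of all genes tested did not overlap, and overlapped H-CM. Abcg1 was higher in TME-CM than in unstimulated EGCs by 0.88 ± 0.21 (1.84-fold, adjusted p = 0.00663), and this call was lost in the model of all 36 libraries (adjusted p = 0.619) and held in the other 14 alternatives, down to 0.000286. Over H-CM the difference of Abcg1 was 0.35 ± 0.21 (−0.06 to 0.76, adjusted p = 0.451) at 24 h. At 12 h the TME-CM libraries held 31.0, 32.0, 33.3 and 35.2 CPM, above all H-CM (10.3 to 30.1 CPM) and all unstimulated libraries (13.9 to 29.6 CPM). The difference over H-CM was 0.64 ± 0.29 (unadjusted p = 0.0419, adjusted p = 0.441) and was not called. Of all genes tested at 12 h, 7.21% did not overlap between TME-CM and H-CM, and 10.6% between TME-CM and unstimulated EGCs.

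Abca1, which loads cholesterol and phospholipid onto lipid-poor apolipoproteins, was not called in any comparison between groups. Its 24 h means were 16.4 ± 5.63 CPM in TME-CM, 16.7 ± 1.45 CPM in H-CM and 14.5 ± 4.93 CPM in unstimulated EGCs, and single libraries of 24 h ran from 9.03 to 23.5 CPM. TME-CM over H-CM was −0.01 ± 0.26 for Abca1 at 24 h, with a 95% interval of −0.52 to 0.49, so a difference of 1 on the log2 scale lies outside it in both directions. At 6 h Abca1 spread from 0 to 50.6 CPM between libraries, wider than any difference between group means. Whether Abcg1 and Abca1 differed from each other in their response was not tested.

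Lpl, the secreted lipase that frees fatty acids from lipoprotein triglycerides, was not called in any comparison either. The 24 h means were 232 ± 28.2 CPM in TME-CM, 242 ± 35.2 CPM in H-CM and 212 ± 35.9 CPM in unstimulated EGCs. TME-CM over H-CM was −0.07 ± 0.14 for Lpl, with a 95% interval of −0.34 to 0.21, and replicate 4 was the lowest library in all 3 groups of 24 h, as for Apod. At 6 h the Lpl means were lower, 94.5 to 140 CPM beside 212 to 265 CPM at the later times, in all 3 conditions alike, and Clu was also lowest at 6 h (30.3 to 46.4 CPM beside 56.5 to 89.0 CPM). These differences of the 6 h libraries were not tested.

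Across the 24 libraries of 12 h and 24 h, Pearson's r between log2 CPM of Fabp4 and Fabp5 was 0.89 and Spearman's rho 0.81, the highest of the 36 pairs of members. This coefficient contains the difference between groups: within the 8 TME-CM libraries r was −0.39, and within the other 16 it was 0.45, where H-CM and unstimulated libraries are again mixed. Among 8192 genes whose mean reached 10 CPM, the 3 with the pattern most like Fabp4 were Plac8 (r = 0.95), Lcn2 (0.94) and Bnip3 (0.94), and within the 8 TME-CM libraries their r values with Fabp4 were −0.07, 0.04 and −0.20. For Fabp5 they were Rgs4 (0.94), Nkd2 (0.93) and Sdc1 (0.93), with 0.05, 0.74 and 0.86 within TME-CM. All these coefficients are descriptions over libraries that share conditions and depth.

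To place the 9 genes among the rest of lipid handling, 107 other genes in 6 lists were examined: other apolipoproteins, lipoprotein and fatty acid receptors, the LXR pathway with sterol efflux, lipases with their cofactors and lipid droplets, endolysosomal lipid handling, and other FABPs with fatty acid transporters. In TME-CM versus H-CM at 24 h, 9 of the 77 tested were called (11.7%, beside 5.4% of all genes), 5 higher and 4 lower, with a median log2 fold change of −0.04. At 12 h 1 of 78 was called (1.28%, beside 1.89%), Ch25h. Against unstimulated EGCs, TME-CM gave 16 of 77 at 24 h (20.8%, beside 9.52%), 14 higher and 2 lower, and H-CM gave 6 of 77 (7.79%, beside 2.03%). With all 36 libraries in 1 model these counts at 24 h fell to 0, 5 and 0. Calls over all genes fell as well, from 686, 1210 and 258 of 12713 genes to 71, 265 and 34 of 13469.

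Of the other FABPs and transporters, Fabp3, the form of heart and skeletal muscle, went the opposite way to Fabp4 and Fabp5 at 24 h. At 24 h it held 12.4, 13.0, 18.8 and 20.5 CPM in TME-CM and 31.5, 43.8, 44.5 and 40.1 CPM in H-CM EGCs, with no overlap, and 23.4 to 39.4 CPM in unstimulated ones. TME-CM and H-CM did not overlap for 11.2% of all genes tested at 24 h. Fabp3 fell by 1.29 ± 0.20 on the log2 scale against H-CM (adjusted p = 0.000283) and by 0.89 ± 0.20 against unstimulated EGCs (adjusted p = 0.00466). At 12 h the Fabp3 difference against H-CM was −0.48, the 2 groups overlapped, and it was called neither in the main fit nor in any of 15 alternatives. Fabp7, the FABP typical of immature glia, was at 7.21 ± 2.41 CPM in TME-CM and 5.20 ± 2.30 CPM in H-CM at 24 h, with a difference of 0.52 that was not called. Acsl4, which activates polyunsaturated fatty acids, was higher in TME-CM than in H-CM by 0.73 ± 0.16 (adjusted p = 0.00779), a call that was lost without H-CM replicate 3 and with all 36 libraries in 1 model. The uptake receptor Cd36 was at 3.53 ± 2.99 CPM in TME-CM and 3.26 ± 1.70 CPM in H-CM. None of the 13 receptors tested was called by edgeR in TME-CM versus H-CM at 24 h, beside 5.4% of all genes.

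Among the partners of Lpl, its inhibitor Angptl4 was higher in TME-CM at 24 h. Its libraries held 16, 12.7, 16.1 and 21.1 CPM in TME-CM and 8.78, 3.24, 4.26 and 0 CPM in H-CM EGCs, the last from 0 counts, and 0.247 to 1.12 CPM in unstimulated ones. Angptl4 exceeded H-CM by 1.90 ± 0.46 (adjusted p = 0.0163) and was not called in 4 of the 15 alternatives, the fits without H-CM replicate 2, H-CM replicate 3 or TME-CM replicate 4 and the model of all 36 libraries. Angptl2, a related secreted protein, was lower by −0.75 ± 0.15 (adjusted p = 0.00219), and Plin4, a coat protein of lipid droplets, by −2.96 ± 0.79 (adjusted p = 0.0268) from only 3.31 ± 1.08 CPM in H-CM and 0.356 ± 0.547 CPM in TME-CM. Leaving out any of 5 single libraries, H-CM replicates 2, 3 and 4 and TME-CM replicates 3 and 4, ended the call of Plin4. Gpihbp1, which anchors Lpl on capillaries, did not pass the filter on low counts.

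In the LXR list, which holds the nuclear receptors that switch on Abca1 and Abcg1, 1 of 13 tested genes was called in TME-CM versus H-CM at 24 h, beside 5.4% of all genes. This was Ch25h, which makes an oxysterol that can act on LXR and is itself induced in inflammation, at 34.0, 11.1, 31.6 and 19.5 CPM in TME-CM and 9.77, 2.43, 0.328 and 1.98 CPM in H-CM. Ch25h was higher by 2.78 ± 0.63 at 24 h (adjusted p = 0.0195) and by 3.65 ± 0.58 at 12 h (adjusted p = 0.00119), and the 24 h call was lost without H-CM replicate 2, without H-CM replicate 4, in the fit of only the 2 groups and in the model of all 36 libraries. Mylip, a ubiquitin ligase and LXR target, was at 33.1 ± 4.93 CPM in TME-CM and 22.9 ± 6.18 CPM in H-CM, with a difference of 0.52 that was not called (adjusted p = 0.184), and the receptor gene Nr1h3 was too low to be tested. In the endolysosomal list 3 of 20 were called, beside the same 5.4%: the sterol transporters Gramd1b (1.13 ± 0.26, adjusted p = 0.00851) and Stard4 (0.67 ± 0.20, adjusted p = 0.0495) were higher, and the hexosaminidase subunit Hexa was lower (−0.61 ± 0.12, adjusted p = 0.00235). Gramd1b was not called without TME-CM replicate 1 or with all 36 libraries, and Stard4 in 9 of the 15 alternatives.

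**Figure D3:**
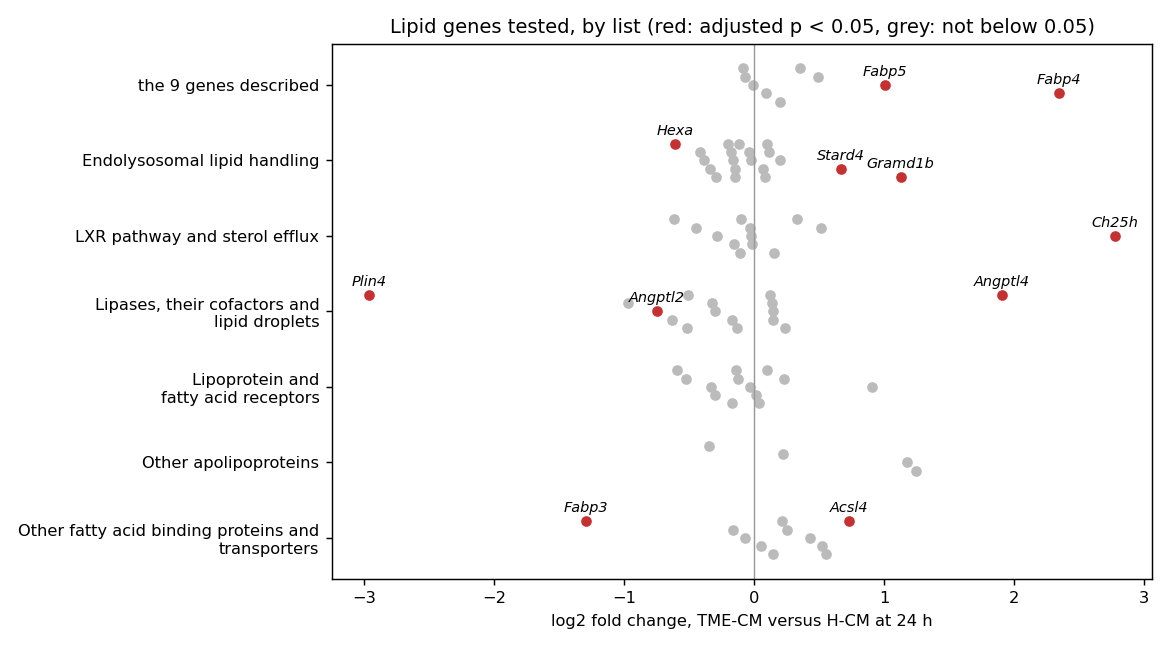
Log2 fold change in TME-CM versus H-CM at 24 h (x axis) of each tested gene, by list, with the 9 genes described in the top row, red points for an adjusted p under 0.05 (edgeR) and grey points for the others. Fabp4 and Fabp5 are on the right of the top row, and Fabp3 is the red point on the left of the lowest row, at −1.29.

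Fabp4 is also a gene of capillary endothelium, adipocytes and macrophages, so markers of these cells were read in the same libraries. The endothelial markers, 8 genes, summed to 14.7 to 34.9 CPM in TME-CM, 38.9 to 66.8 CPM in H-CM and 37.9 to 59.3 CPM in unstimulated libraries of 24 h. Of the 3 endothelial markers tested, Kdr was called, lower in TME-CM than in H-CM (−1.65, adjusted p = 0.00203), and Tie1 and Tek were at 0 in all TME-CM libraries of 24 h, while Cldn5 was at 0 in all libraries of 24 h. The median log2 fold change of the 3 was −0.58. At 12 h, 0 of 3 were called in TME-CM versus H-CM, beside 1.89% of all genes, with a median of 0.07. The endothelial sums of 12 h were 26.4 to 43.2 CPM in TME-CM, 46.3 to 60.8 CPM in H-CM and 34.0 to 73.1 CPM in unstimulated libraries. All 6 adipocyte markers, Adipoq, Cfd, Lep, Plin1, Cidec and Retn, had 0 counts in TME-CM libraries of 24 h, and their sum did not exceed 2.97 CPM in any library.

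The macrophage markers summed to 38.3 to 166 CPM in TME-CM, 20.3 to 124 CPM in H-CM and 33.5 to 146 CPM in unstimulated libraries of 24 h, ranges that overlap, and 0 of 11 were called by edgeR in TME-CM versus H-CM at 24 h. Of the 7 fibroblast markers, 4 were called higher in TME-CM than in H-CM at 24 h, with sums of 6346 to 8036 CPM in TME-CM, 5046 to 5721 CPM in H-CM and 6096 to 7709 CPM in unstimulated libraries. Against unstimulated EGCs, TME-CM had 2 of them higher and 1 lower, and H-CM had 1 lower. Of the 7 smooth muscle markers, 4 were called lower in TME-CM than in H-CM, and all 7 were called lower in each conditioned medium than in unstimulated EGCs (1813 to 2627 CPM in TME-CM, 3448 to 4271 CPM in H-CM and 7350 to 8413 CPM in unstimulated libraries, summed). Of all genes tested at 24 h, 5.4% were called in TME-CM versus H-CM. Against unstimulated EGCs the shares were 9.52% in TME-CM and 2.03% in H-CM. The part of endothelial cells, macrophages, fibroblasts and smooth muscle cells in the Fabp4 and Fabp5 differences was not tested.

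**Figure D4:**
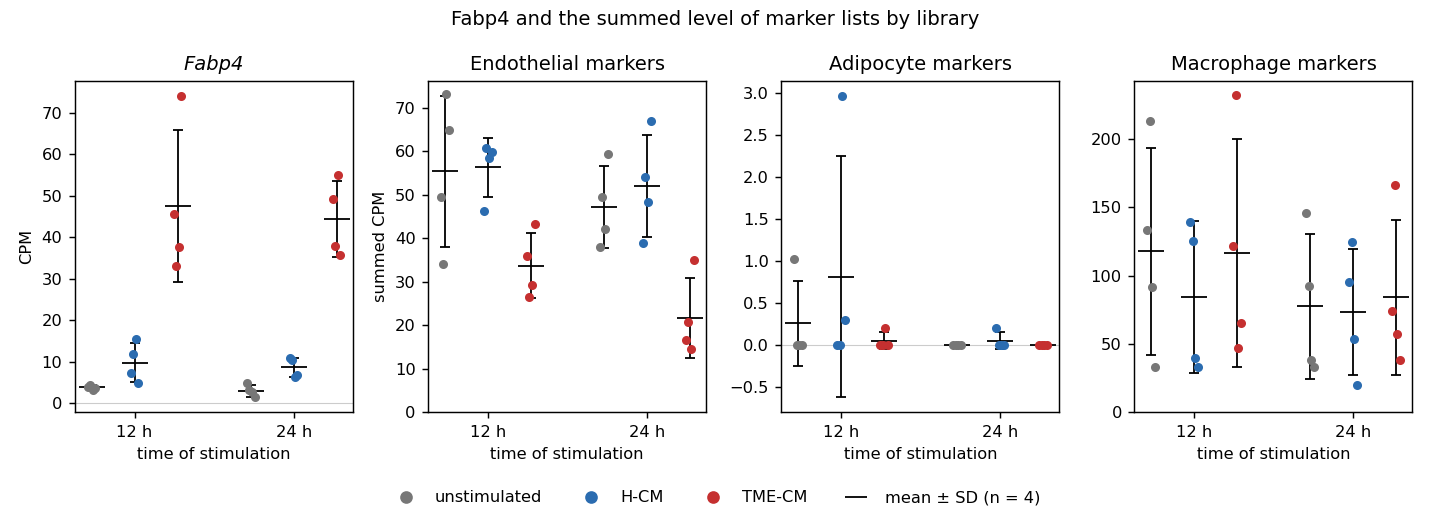
CPM of Fabp4 and summed CPM of the endothelial, adipocyte and macrophage marker lists (linear axes) in each library of 12 h and 24 h, by condition, with black bars for the mean ± SD (n = 4). In TME-CM at 24 h Fabp4 lies between 35.7 and 55.0 CPM, the endothelial sum lies between 14.7 and 34.9 CPM and the adipocyte sum is 0.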

How the data were processed

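Gene expression was measured by QuantSeq 3′ mRNA sequencing in 36 libraries. The deposited values are raw counts per gene symbol. The authors checked reads with FastQC 0.11.7, trimmed adapters with fastq-mcf and aligned to mm10 by HISAT2. Reads with more than 1 locus were dropped before HT-seq Count tallied them per gene. SAMtools 1.5 is also named in the processing notes. Which annotation and strand setting were used, and whether molecular identifiers were read, is not given in the sources used here, so a count is taken as a read. Counting by 3′ ends leaves values unscaled by transcript length, so levels are compared within a gene.

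Groups were taken from the sample labels. The tools were edgeR 4.0.16 and DESeq2 1.42.0 under R 4.3.3. In each time point's 12 libraries, genes were kept by filterByExpr (minimum count 10), scaled with TMM factors and fitted with a robust quasi-likelihood model with 1 mean per group. The 24 libraries of 12 h and 24 h gave the comparisons between times. The SE is the size of the log2 fold change divided by the root of the F statistic, and 95% intervals are 1.96 SE on each side. They use a normal quantile and so are narrower than intervals matched to the F test. Correlations used log2 CPM with a prior count of 2. Positions and sequences are from GENCODE M21 on GRCm38.

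The members and the lists were chosen with earlier results of these data known. Named genes are all 9 members, listed pathway genes called in TME-CM versus H-CM at 12 h or 24 h (at most 4 per list), a set of direct partners (results of some are not reported here), and for Fabp4 and Fabp5 the 3 genes most like each over 24 libraries. Marker genes and list members that were named because a count of 5 or fewer rests on them were chosen after their values were seen. Alternatives were size factors from DESeq2, the unfiltered table, the Wald test of DESeq2, fits restricted to the groups compared, a joint fit of all 36 libraries, a replicate block, the table without Yam1 (its most abundant entry), each library left out in turn, and plain CPM. Yam1 held from 11.0% of the counts in TME-CM replicate 3 of 6 h to 48.6% in H-CM replicate 1 of 6 h, so library totals include it unevenly. Leaving both shallow libraries of 6 h out together was added after the data were seen.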

Additional observations from a re-analysis of the deposited data

Results flagged for a closer look

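In 81 groups of 4 libraries, each of the 9 genes in each of the 9 groups, the gap between the most extreme library and the nearest other was compared with the whole range of the group. In 3 groups this ratio was above Dixon's 95% critical value for 4 values, and chance alone flags about 1 in 20 groups. Abcg1 in TME-CM replicate 3 of 6 h stood at 130 CPM, from 317 counts, beside 34.1 to 38.1 CPM in the other 3 libraries. Lpl in TME-CM replicate 4 of 12 h was low at 202 CPM beside 241 to 247 CPM. Npc2 in unstimulated replicate 2 of 12 h was high at 621 CPM beside 524 to 528 CPM.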

How the results depend on the processing

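The 114 log2 fold changes of members were recomputed under 1806 alternatives in all, and 1787 kept their side of the threshold, 7 lost a call, 12 gained one and 0 turned a called direction, while 111 values that were called in neither fit changed sign. Counts of members called changed by over 1.5 times as follows. With all 36 libraries in 1 model, TME-CM versus H-CM gave 1 at 12 h and 1 at 24 h (Fabp5), TME-CM versus unstimulated 2 at 24 h (Fabp4 and Fabp5) and H-CM versus unstimulated 0 at 24 h. In the same order that model called 81, 71, 265 and 34 of 13469 genes, beside 230, 686, 1210 and 258 genes in the main fits. With no filter on low counts, H-CM versus unstimulated gave 1 at 12 h (Fabp4), beside 168 of 20956 genes. At 24 h it gave 3 (Apod, Npc2, Fabp4), beside 446 of 21425 genes. DESeq2's Wald test and the fit of only the groups compared each gave 2 there (Npc2, Fabp4), beside 410 of 12713 and 280 of 12211 genes. The cause was not tested. Counts without a single library stayed within 1.5 times of those reported. Pathway genes called in TME-CM versus H-CM at 24 h ranged from 0 to 12 over 15 alternatives. Deviations of same-numbered libraries, over the genes kept, correlated over 0.1 in 1 of 12 pairs at 6 h and in 2 of 12 at each later time. At 24 h their median was 0.07, beside −0.01 for pairs with different numbers. Single genes did share a lowest replicate, as Apoe, Apod and Lpl at 24 h, so these correlations do not show that the libraries are unpaired. The replicate block gave Apod a call in TME-CM versus H-CM at 24 h (0.49, adjusted p = 0.0379) and changed no other call of a member. On plain CPM, 73 of 81 group means moved by less than 1 SD. At 6 h, totals of 13518 and 256453 counts limit the values of 2 libraries.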
